A study of Mus musculus with 2 samples.

Results

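The genes described here are 10 liver genes of ammonia and amino acid breakdown, Cps1, Otc, Ass1, Asl, Arg1, Nags, Gls2, Sds, Hal and Cyp2f2. They were chosen by symbol from the 31053 gene rows of the deposited tables, and all 10 were found. The study profiled single cells from the livers of C57BL/6 mice. The chow library came from mice on a chow diet and the other from mice on a NASH diet, rich in fructose, fat and cholesterol (NASH is non-alcoholic steatohepatitis), each for 6.5 weeks. Cells were freed with collagenase, separated by density on Percoll to keep non-parenchymal cells and hepatocytes together, and made into libraries with the 10x Genomics 3' kit, in which each unique molecular identifier (UMI) counts 1 captured RNA molecule. With 1 library per diet, and no label giving the number of mice, the data hold no replicates. No test between diets was therefore possible, and every interval below is an exact 95% interval that covers counting error only.

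Ammonia released by amino acid breakdown is toxic, and the urea cycle of hepatocytes turns it into urea. Blood enters the liver lobule at the portal tract and leaves at the central vein, and hepatocytes along that path differ in their enzymes. Hepatocytes nearer the portal tract are known for urea synthesis and amino acid breakdown, whereas a thin layer around the central vein makes glutamine from the ammonia that remains, through Glul (glutamine synthetase). In the cycle, Cps1 makes carbamoyl phosphate from ammonia and needs N-acetylglutamate, the product of Nags. Otc makes citrulline, Ass1 and Asl convert it by way of argininosuccinate to arginine, and Arg1 splits arginine into urea and ornithine. Gls2 releases ammonia from glutamine, Sds deaminates serine, Hal begins the breakdown of histidine, and Cyp2f2 is a cytochrome P450 used as a periportal landmark. Cyp2e1, a cytochrome P450 of hepatocytes near the central vein, served as the opposite landmark.

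In the GENCODE M21 annotation of GRCm38, the build named mm10 in the submitters' processing notes, the cycle genes lie at chr1:67123026-67231259 (Cps1), chrX:10252305-10321024 (Otc), chr2:31470207-31520672 (Ass1), chr5:130011258-130029247 (Asl), chr10:24915221-24927484 (Arg1) and chr11:102145513-102149477 (Nags). The others lie at chr10:128194457-128210004 (Gls2), chr5:120476526-120483932 (Sds), chr10:93488768-93519304 (Hal) and chr7:27119909-27133660 (Cyp2f2). Exons of a gene on the opposite strand overlap exons of Nags, Gls2, Sds and Cyp2f2, and no label or file header says whether reads were counted by strand.

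The sequence upstream of the start site is shown for Hal, Otc and Nags, which had a steep, a shallow and a slightly opposite slope across the lobule axis described below. RefSeq promoter entries (GRCm38.p6) matched 5 of the 10 genes, Ass1, Cyp2f2, Hal, Nags and Otc. The 250 bases before each start are written 5′ to 3′ on the plus strand, at chr10:93488518-93488767 (Hal), chrX:10252055-10252304 (Otc) and chr11:102145263-102145512 (Nags). Capitals mark matches on either strand to CTTTGAT, a core of TCF sites, or to TTNNGCAA, a core of C/EBP sites.

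Hal: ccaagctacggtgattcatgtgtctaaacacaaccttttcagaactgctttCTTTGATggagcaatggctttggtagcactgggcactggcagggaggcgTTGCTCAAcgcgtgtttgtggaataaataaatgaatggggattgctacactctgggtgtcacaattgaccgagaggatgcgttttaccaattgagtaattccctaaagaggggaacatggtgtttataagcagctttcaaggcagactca
Otc: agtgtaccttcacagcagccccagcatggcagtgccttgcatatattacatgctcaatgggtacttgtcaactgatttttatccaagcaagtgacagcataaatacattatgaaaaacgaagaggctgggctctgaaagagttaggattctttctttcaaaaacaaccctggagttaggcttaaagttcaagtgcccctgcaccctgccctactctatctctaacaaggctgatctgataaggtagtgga
Nags: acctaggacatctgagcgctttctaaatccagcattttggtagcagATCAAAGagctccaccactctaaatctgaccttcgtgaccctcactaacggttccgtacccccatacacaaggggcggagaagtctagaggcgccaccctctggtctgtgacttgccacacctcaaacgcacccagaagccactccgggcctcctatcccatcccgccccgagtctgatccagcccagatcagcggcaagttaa

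CTTTGAT was found upstream of Hal and Nags, 2 of the 5 genes with an entry, and in 3.21% of all 32851 promoters of the same length. TTNNGCAA was found upstream of Hal alone, and in 9.56% of promoters. In all, 9 letter patterns were searched on both strands. A looser C/EBP pattern, TTNCNNAA, which was run before TTNNGCAA and is not capitalised, matched Hal, Nags and Otc and 36.8% of all promoters. The other 6 patterns had no match in the 5 genes, among them CAAAGTCCA (HNF4; 0.384% of promoters) and CAAAGTNCA, which contains it (1.19%), CTTTGAA (TCF; 4.46%), and TGACGTCA (CRE; 1.55%) with its part TGACG (17.8%). A match here is a run of letters and was not tested as a binding site.

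The chow library held 7359 barcodes and 71635757 UMIs (median 4843 per barcode) and the NASH diet library 5881 barcodes and 39440182 UMIs (median 2305), with 69 barcode sequences in both. After filters, 4041 and 2305 barcodes were kept, of which 2070 (51.2%) and 1127 (48.9%) were hepatocyte-like, with median depths of 23685 and 19856 UMIs. Mitochondrial genes took a median of 18.1% and 23.1% of the UMIs in these cells. Different clusters made up the class in each library, mainly clusters 0, 1, 4 and 7 in chow and 11, 15, 16 and 17 in the NASH diet. Endothelial, phagocyte, T cell, B cell, neutrophil and mesenchymal marker lists each took at most 0.00101% of UMIs in either library. The leading genes of cluster 1 included Spp1, a bile duct marker, and none of the hepatocyte markers. Of the other bile duct markers in its 979 cells, Epcam had 9 UMIs, Krt19 had 5, Krt7 and Cldn4 had 1 each, and Sox9 had 1225. The diet values are therefore also given for a class gated on markers without clustering, and for clusters by number.

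Of the 10 genes, 8 were at a higher level in the NASH diet library and Arg1 and Nags were at a lower one. Of all genes tested, 69.2% were higher. Levels are CPM, the UMIs of a gene scaled to a fixed UMI total, summed over hepatocyte-like cells, and differences are log2 of (CPM + 1), NASH diet over chow. The median difference was 0.41, against 0.15 for all 6459 genes tested. Only Sds passed a 1.5-fold difference, 1 of 10 genes, where 10.4% of all genes were higher by that much. None of the 10 was lower by that much, against 5.23% of all genes. Summed over the 10 genes, the share of all hepatocyte-like UMIs was 0.460% on chow and 0.596% on the NASH diet. At a fold of 2 none of the 10 passed, against 3.36% of all genes higher and 2.38% lower. In the marker-gated class, which uses no clusters, the median was 0.42 and again only Sds passed the fold.

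Cps1, the first enzyme of the cycle, measured 1141 CPM in the chow library (interval 1132 to 1151) and 1464 CPM under the NASH diet (1448 to 1480), a log2 difference of 0.36. Otc was at 352 CPM in chow and 471 CPM in the NASH diet, a log2 difference of 0.42 (0.39 to 0.46). Ass1 stood at 845 and 1211 CPM, a log2 difference of 0.52 (0.50 to 0.54). The intervals given for Cps1 are those of its levels, and those for Otc and Ass1 are of the log2 difference. Asl was at 189 CPM in chow and 271 CPM in the NASH diet, which gave a log2 difference of 0.52, close to that of Ass1, the enzyme before it. Arg1, the last enzyme of the cycle, was lower in the NASH diet, at 691 CPM on chow (683 to 698) and 604 CPM on the NASH diet (594 to 614). Its log2 difference was -0.19 (-0.22 to -0.16). Nags was the least abundant member, at 53.8 CPM (51.7 to 55.9) and 52.4 CPM (49.5 to 55.5), intervals that overlap.

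Among the ammonia-releasing and amino acid genes, Sds differed most, from 181 CPM on chow (177 to 185) to 326 CPM on the NASH diet (319 to 334), a log2 difference of 0.85. The difference was smaller among cells placed on the axis described below. In the 1585 chow and 887 NASH diet cells that carried at least 20 UMIs of Cyp2e1 and Cyp2f2 together, Sds was at 159 and 200 CPM, a log2 difference of 0.33, and no member passed the fold. The 133 barcodes of cluster 17 in the NASH diet, led by Sds, held it at 1745 CPM, and when hepatocyte-like clusters had to reach a mean log2 marker fold of 1, which leaves out cluster 17, no member passed the fold either. That naming took barcodes almost only from the NASH diet, leaving 2069 in chow and 994 in the NASH diet. Cluster 4 of chow (286 barcodes, Sds at 556 CPM) stayed in, so the classes were not trimmed alike. In the merged matrix Sds differed by 0.17, less than Gls2 (0.34), Hal (0.34) and Cyp2f2 (0.64), and Cyp2f2 was the 1 member past the fold. There a cluster of 166 NASH diet barcodes led by Sds was not named hepatocyte-like, and the class held 2023 chow and 928 NASH diet barcodes. Gls2 was at 124 CPM in chow and 164 CPM in the NASH diet. Hal was at 190 and 238 CPM, and Cyp2f2 at 837 and 1159 CPM. Their log2 differences were 0.40, 0.32 and 0.47. Cyp2e1, the landmark of the other end, differed by more, at 1344 and 2179 CPM (log2 difference 0.70).

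Since the median gene differed by 0.15 between the libraries, the differences relative to that shift were 0.20 for Cps1, 0.27 for Otc, 0.36 for Ass1 and Asl, 0.24 for Gls2, 0.69 for Sds, 0.17 for Hal and 0.31 for Cyp2f2. On that scale Arg1 was at -0.35 and Nags at -0.19, so the direction of each of the 10 was kept. An acute-phase list (Saa1, Saa2, Saa3, Orm1, Orm2, Hp, Lcn2, Apcs and Fgb) took from 5.20% to 7.36% of UMIs in chow across the 5 axis bins described below, and from 0.480% to 0.956% in the NASH diet. Its part in the differences was not tested.

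**Figure D1:**
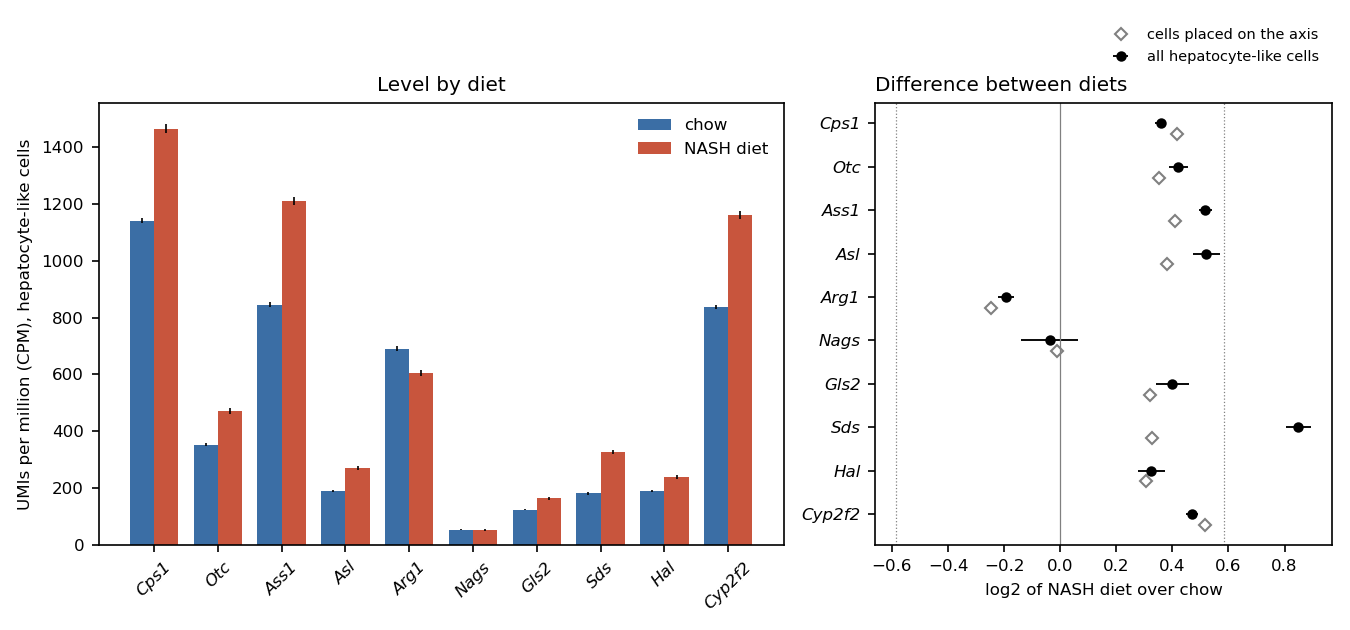
Left, level of each gene in CPM, summed over hepatocyte-like cells of the chow and NASH diet libraries, with exact 95% counting intervals as error bars and 1 library per diet. Right, log2 of NASH diet over chow in all hepatocyte-like cells (filled, with counting intervals) and in cells placed on the axis (open); dotted lines mark 1.5-fold, which Sds alone passed, at 0.85, and not among the cells on the axis, at 0.33.

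The genes were then followed from the Cyp2e1 end to the Cyp2f2 end. Each hepatocyte-like cell with at least 20 UMIs of the pair was ranked by its Cyp2f2 over Cyp2e1 ratio, and the cells of each library were divided into 5 bins of equal number, bin 1 at the Cyp2e1 end. Cyp2f2 exceeded Cyp2e1 in 60.6% of cells on the chow axis (58.2% to 63.0%), and in the NASH diet in 61.1% (57.8% to 64.3%). In bin 5 no cell has a UMI of Cyp2e1, and in bin 1 only 6.62% of chow and 7.30% of NASH diet cells have one of Cyp2f2, so the order within those bins follows mainly the UMIs of 1 gene. Depth differed along the axis. Median UMIs per cell in bins 1, 2 and 5 were 30695, 21179 and 30548 in chow and 30208, 19859 and 22465 in the NASH diet. The part of depth in the placing of cells was not tested. Because Cyp2f2 makes the axis, its own rise is not a result, and the slopes below are those of the 9 other genes, as log2 of bin 5 over bin 1.

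The genes fell into the same groups by slope in both libraries. Gls2, Sds and Hal were nearly confined to the Cyp2f2 end, with slopes from 4.74 to 7.23. The 5 enzymes from Cps1 to Arg1 were present along the whole axis with slopes from 0.58 to 1.84, and Nags sloped slightly the other way. In chow, 7 of 9 genes were at least 1.5-fold higher in bin 5, against 4.74% of all genes, and Cps1, at 1.499-fold, and Nags were the others. In the NASH diet 8 of 9 were, against 5.46% of all genes. Gls2, Sds and Hal were under 10 CPM in bin 1 of both libraries. They passed the filter of 10 CPM only through the other bins, so their place in these counts was partly set by that filter. Without the Glul-high cells described below, Otc (0.48) and Ass1 (0.53) no longer passed in chow, which left 5 of 9 (4.39% of all genes), and Otc (0.34) no longer passed in the NASH diet, which left 7 of 9 (4.66%). None was 1.5-fold higher in bin 1, where 7.6% of all genes were in chow and 16% in the NASH diet. The median slope was 0.81 in chow and 1.65 in the NASH diet, with -0.10 and -0.19 for all genes.

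Cps1 was lowest in bin 1 of both libraries. From bin 1 to bin 5 it was at 820, 1321, 1347, 1268 and 1230 CPM in chow and at 718, 1628, 2165, 1901 and 1890 CPM in the NASH diet. Most of the difference along the axis lay between the first 2 bins, and the peak was in bin 3, not at the Cyp2f2 end. Without the Glul-high cells described below, bin 1 held Cps1 at 938 CPM in chow and 1165 CPM in the NASH diet. Arg1 ran from 344 CPM in bin 1 to 839 in bin 4 and 799 in bin 5 in chow, and from 207 to 765 in bin 3 and 747 in bin 5 in the NASH diet. Arg1 had the steepest slope of the 5 cycle enzymes in both libraries, 1.22 (1.16 to 1.28) in chow and 1.84 (1.75 to 1.95) in the NASH diet. Without the Glul-high cells its slope was 0.96 in chow and 1.04 in the NASH diet, where that of Asl, 1.29, was then steeper. Ass1 ran from 509 to 843 CPM in chow and from 419 to 1220 CPM in the NASH diet. Asl ran from 119 to 211 CPM in chow and from 98.2 to 310 CPM in the NASH diet. Otc had the shallowest slope of the 5 in the NASH diet, from 286 to 484 CPM, and ran from 248 to 374 CPM in chow. Nags declined from 58.8 to 44.96 CPM in chow and from 59.2 to 44.7 CPM in the NASH diet, slopes of -0.38 (-0.57 to -0.21) and -0.40 (-0.67 to -0.14).

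Sds had 21 UMIs in the 317 chow cells of bin 1 (2.11 CPM) and 8 UMIs in the 178 NASH diet cells of bin 1 (1.44 CPM), against 259 and 365 CPM in bin 5. Hal ran from 4.01 to 333 CPM in chow and from 7.94 to 392 CPM in the NASH diet. Gls2 ran from 6.42 to 197 CPM in chow and from 4.15 to 271 CPM in the NASH diet. For all 3 the largest step in CPM lay between bins 2 and 3, where the balance of the pair turned over: Hal was at 43.1 and 271 CPM in those bins of chow, and at 103 and 385 CPM in those of the NASH diet. Asl shared that position of its largest step, from 141 to 214 CPM in chow and from 190 to 309 CPM in the NASH diet. Cps1, Otc, Ass1 and Arg1 had theirs between bins 1 and 2 in both libraries. That place depended on the Glul-high cells of bin 1, described below. With bin 1 taken without them, bins 1, 2 and 3 of the NASH diet held Cps1 at 1165, 1628 and 2165 CPM. Otc was then at 368, 420 and 485, Ass1 at 647, 925 and 1268, and Arg1 at 339, 527 and 765 CPM. For each the step between bins 2 and 3 was then the larger. In chow this held for Ass1 alone (575, 685 and 800 CPM).

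**Figure D2:**
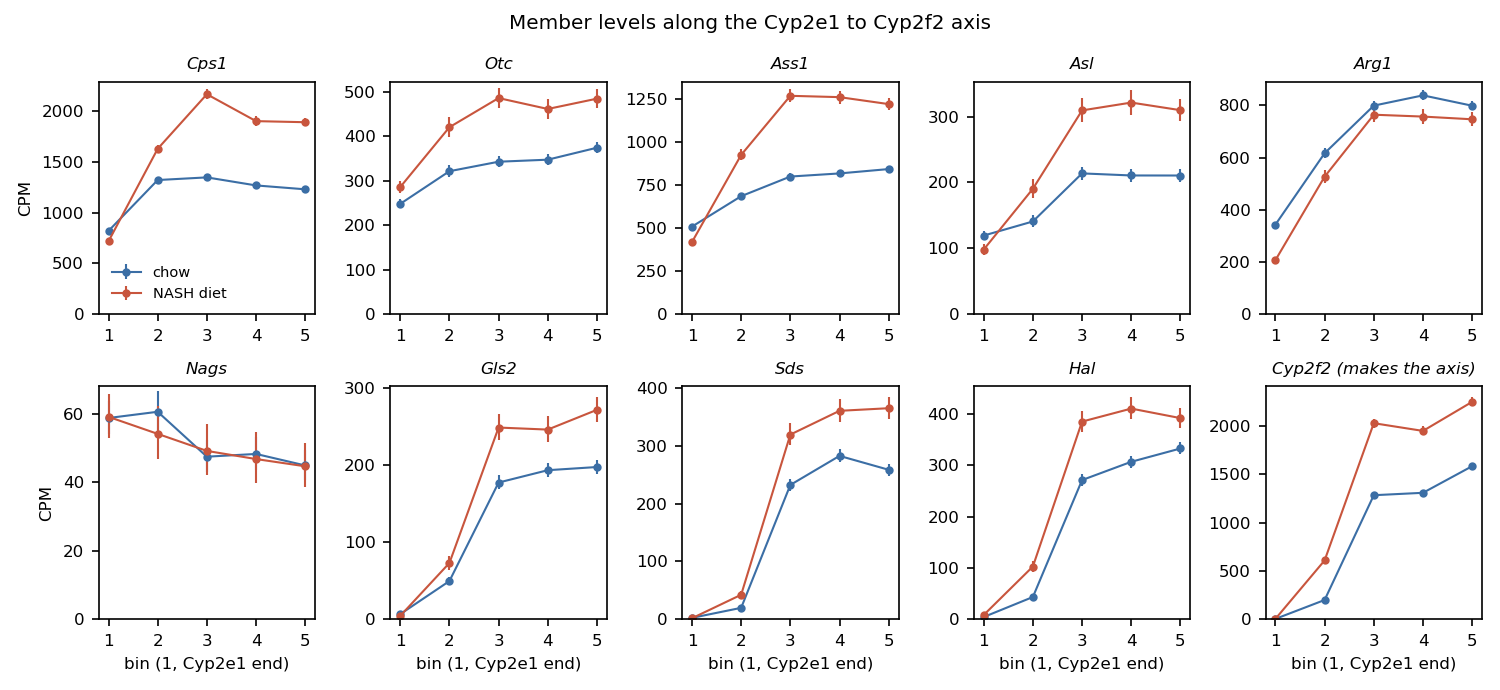
Level in CPM (vertical axes, each from 0) of the 10 genes in 5 bins from the Cyp2e1 end (bin 1) to the Cyp2f2 end (bin 5), in chow and the NASH diet, with exact 95% counting intervals. Cps1, Otc, Ass1, Asl and Arg1 are present in all bins and lowest in bin 1, Nags is lowest in bin 5, and Gls2, Sds and Hal are near 0 in bin 1; Cyp2f2 makes the axis and is shown for reference.

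The slopes of 7 of the 9 genes were steeper in the NASH diet library, all but Nags and Hal, and the median difference between the libraries was 0.81. That size moved with the processing, to 0.44 with 3 bins and 0.49 with 10 bins, 1.19 on an axis of other landmarks and 1.63 at a mitochondrial limit of 20%. On the landmark axis and at the 20% limit the slopes of all 9 genes were higher. That of Nags at the 20% limit was -0.42 in chow and -0.02 in the NASH diet, nearly flat. How many of all genes had a higher slope in the NASH diet was not counted, so these counts have no share beside them. More of all genes passed 1.5-fold toward each end in the NASH diet. Toward bin 5 it was 5.46% against 4.74% in chow, and toward bin 1 it was 16% against 7.6%. The Cyp2e1 end differed in its makeup. Glul, the glutamine synthetase of the innermost pericentral layer, reached at least 1000 CPM in 3.28% of chow cells (52 of 1585, interval 2.46% to 4.28%). In the NASH diet library the share was 9.47% (84 of 887, interval 7.62% to 11.6%). In bin 1 these were 40 of 317 and 66 of 178 cells. The threshold was set after the data had been seen, and 17 and 27 cells lay between 500 and 2000 CPM. Without these Glul-high cells the median slopes were 0.70 and 1.04, and the median difference was 0.23. The slopes of 7 of 9 genes were then higher in the NASH diet, all but Otc and Hal.

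In the 5 enzymes from Cps1 to Arg1, the Glul-high cells differed from the other cells of the Cyp2e1 side more than the Cyp2f2 side did. Cps1 was at 24.8 CPM (17.4 to 34.3) in the Glul-high cells of chow and 1112 CPM in the other Cyp2e1-side cells, and at 41.5 (34.0 to 50.2) and 1445 CPM in the NASH diet. Arg1 was at 12.4 and 492 CPM in chow and at 9.40 and 448 CPM in the NASH diet. Ass1 was at 63.4 and 629 CPM in chow and at 76.0 and 819 CPM in the NASH diet. Cps1 was thus 43.1-fold and 34.0-fold lower in the Glul-high cells, Arg1 36.8-fold and 43.2-fold, and Ass1 9.78-fold and 10.7-fold. Otc and Asl were lower by less: Otc was at 134 and 291 CPM in chow and 165 and 403 CPM in the NASH diet, and Asl was at 58.5 and 134 CPM and at 63.4 and 159 CPM. Nags was at 56.5 and 59.6 CPM in chow and at 59.5 and 56.3 CPM in the NASH diet, with overlapping intervals. On the Cyp2f2 side it was lower than in the other Cyp2e1-side cells, at 47.2 CPM in chow (44.6 to 49.9) against an interval of 55.8 to 63.6.

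Of the 8 genes that reached 10 CPM in either set of chow, all but Sds, 7 were at least 1.5-fold lower in Glul-high cells, against 5.44% of all genes. In the NASH diet 8 of 9 were, against 6.47%. None was 1.5-fold higher there, against 7.41% and 5.27%. Gls2 and Hal in chow, and Arg1, Gls2, Sds and Hal in the NASH diet, were under 10 CPM in the Glul-high cells. They could therefore only be called lower. Gls2 had 1 UMI in these cells in chow and 3 in the NASH diet, and Sds had 3 and 9, so their ratios there are loose. Oat, which makes ornithine into a precursor of glutamate, moved the other way, at 4240 CPM in the Glul-high cells of chow and 873 CPM in the other Cyp2e1-side cells, and at 5834 and 876 CPM in the NASH diet.

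Between the other cells of the Cyp2e1 side and those of the Cyp2f2 side, 5 of the 9 genes were at least 1.5-fold higher on the Cyp2f2 side in chow (Asl, Arg1, Gls2, Sds and Hal), against 3.46% of all genes. In the NASH diet 6 of 9 were, Ass1 with them, against 2.72%. Sds in chow reached 10 CPM only on the Cyp2f2 side. Cps1 was 1.15-fold higher on the Cyp2f2 side in chow (1283 CPM) and 1.37-fold higher in the NASH diet (1986 CPM), and Otc 1.22-fold and 1.18-fold. Ass1 was 1.30-fold and 1.52-fold higher, Asl 1.57-fold and 1.96-fold, and Arg1 1.65-fold and 1.68-fold. The amino acid genes again differed far more: Sds was 27.0-fold and 18.0-fold higher on the Cyp2f2 side, Hal 14.8-fold and 7.10-fold, and Gls2 7.31-fold and 6.59-fold.

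**Figure D3:**
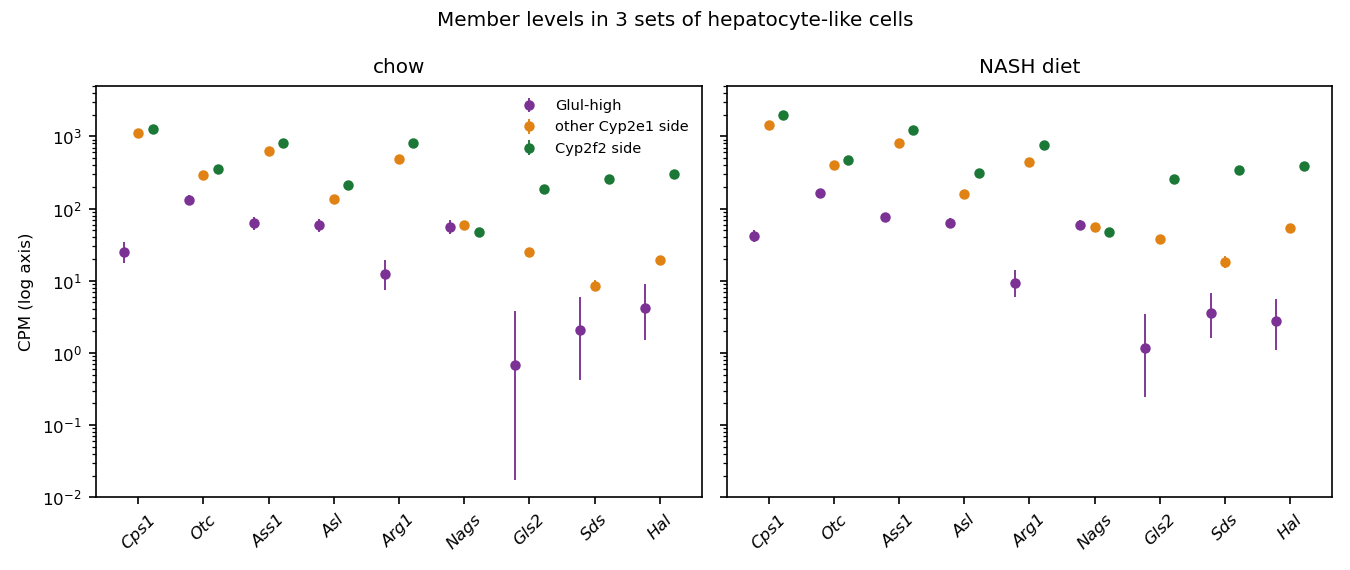
Level in CPM on a log axis of the 9 genes other than Cyp2f2 in Glul-high cells (at least 1000 CPM of Glul), other cells of the Cyp2e1 side and cells of the Cyp2f2 side, in chow (left) and the NASH diet (right), with exact 95% counting intervals. Cps1, Arg1 and Ass1 fall away in Glul-high cells, Gls2, Sds and Hal already differ between the 2 sides, and Nags varies least, from 47.0 to 59.6 CPM.

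Compared within these sets, the diets differed by a median of 0.19 over the 6 genes tested in Glul-high cells, and over all 9 genes of 0.38 in the other Cyp2e1-side cells and 0.43 on the Cyp2f2 side, where the median of all genes was 0.10, 0.19 and 0.06. On the Cyp2f2 side, 2 of the 9 passed 1.5-fold, Cps1 (0.63) and Ass1 (0.60), against 8.35% of all genes. Among the other Cyp2e1-side cells the 2 that did were Hal, at 19.6 CPM in chow and 54.4 CPM in the NASH diet, and Sds, at 8.55 and 18.2 CPM, against 13.9% of all genes. Sds reached 10 CPM only in the NASH diet there, so it could only be called higher. In those cells Cyp2f2 itself was at 76.5 CPM in chow and 265 CPM in the NASH diet, and Cyp2e1 at 3410 and 4947 CPM. A difference in level and a difference in place on the axis cannot be told apart here. In the Glul-high cells 6 of the 9 genes reached 10 CPM, all but Gls2, Sds and Hal, and 1 of these passed, Cps1 at 0.72 (0.19 to 1.33), against 14.5% of all genes. That value rests on 36 UMIs of Cps1 in chow, 30.6% of them from 1 cell. None of the genes tested was 1.5-fold lower in any of the 3 sets, where 8.42%, 5.37% and 6.94% of all genes were. By bin, 6 of the 10 genes reached 10 CPM in bin 1, all but Gls2, Sds, Hal and Cyp2f2. Of these 6 none was higher past the fold (13.5% of all genes were) and Arg1 was lower (-0.73, against 6.02%). Without the Glul-high cells of bin 1, Arg1 was at 393 and 339 CPM (-0.21) and no longer passed. Of the 7 genes then tested none was lower (6.31% of all genes) and Hal alone was higher, at 4.13 and 11.7 CPM (15.4%). Hal had 36 and 39 UMIs there and reached 10 CPM only in the NASH diet, so it could only be called higher. In bin 5 all 10 were tested, and Cps1 alone was higher (0.62, against 9.18%) and none was lower (7.55%). Arg1 was lower in the NASH diet in the other Cyp2e1-side cells, at -0.13 (-0.20 to -0.07), and on the Cyp2f2 side, at -0.11 (-0.14 to -0.07). In the Glul-high cells it was at -0.37 (-1.34 to 0.57), an interval that takes in both directions. That value rests on 18 UMIs of Arg1 in chow and 24 in the NASH diet.

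In pairs of clusters chosen after the data had been seen, the Cyp2f2-rich cluster 15 of the NASH diet (568 cells) set against cluster 1 of chow (979 cells) gave a median difference of 0.41 over the 10 genes, with Cps1 at 0.64 and Ass1 at 0.60. The Cyp2e1-rich cluster 16 of the NASH diet (331 cells) set against cluster 0 of chow (668 cells) gave a median of 0.07, with Arg1 lowest at -0.53, Cps1 at 0.03, Sds at 0.50, Hal at 0.62 and Cyp2f2 highest at 0.83. Cluster 16 counted Glul among its leading genes.

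A part of the barcodes kept the cycle in unequal amounts. Cluster 4 of chow (286 barcodes, median 5474 UMIs) and cluster 17 of the NASH diet (133 barcodes, median 9818 UMIs) were hepatocyte-like, and clusters 2 (1747 barcodes of chow, median 645 UMIs) and 12 (986 barcodes of the NASH diet, median 1189 UMIs) were too shallow to be named. In all 4, Ass1 was above the cells on the axis of the same library, at 3127, 4199, 1569 and 3011 CPM in that order, against 726 CPM in chow and 964 CPM in the NASH diet. Cps1 was below them, at 197, 203, 319 and 271 CPM against 1179 and 1573 CPM. Otc and Sds were likewise above. Otc was at 879, 1183, 651 and 1001 CPM against 325 and 415 CPM, and Sds at 556, 1745, 262 and 1120 CPM against 159 and 200 CPM. The albumin gene Alb was below, at 4395, 6804, 7159 and 8422 CPM against 26069.8 and 39218.6 CPM. Cyp2f2 was at 73.5, 107, 117 and 140 CPM, but the cells on the axis were chosen by their UMIs of Cyp2e1 and Cyp2f2, so it is not compared.

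Mitochondrial genes took a median of 2.01% of UMIs in cluster 4 and 3.46% in cluster 17, against 18.8% and 23.9% in the cells on the axis. The share was 6.30% in cluster 2 and 21.7% in cluster 12. Cluster 7 of chow (113 barcodes, median 5770 UMIs, 21.1% mitochondrial) was equally shallow with the reverse makeup: Cps1 was at 1623 CPM, Ass1 at 394 and Otc at 175. Whether depth or mitochondrial share had a part in these values was not tested. The clusters were made from variable genes of these same cells, so the values describe the clusters and test nothing.

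**Figure D4:**
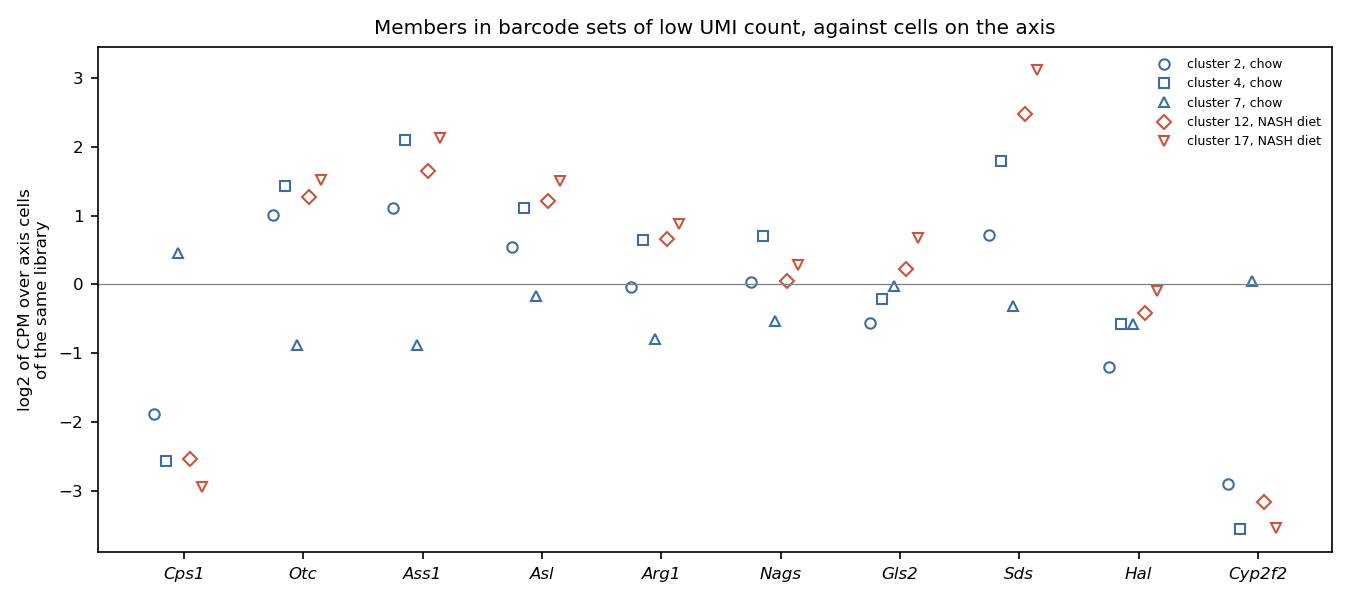
Log2 of the level of each gene in 5 barcode clusters of low UMI count over that in the cells placed on the axis of the same library (0, grey line), in chow (blue) and the NASH diet (red). Ass1, Otc and Sds lie above 0 and Cps1 below it in clusters 2, 4, 12 and 17, and cluster 7 does not share that order; Cyp2f2 was used to choose the axis cells.

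Levels were also compared from cell to cell, over cells that include the deeper barcodes of clusters 4 and 17. In hepatocyte-like cells thinned to 5000 UMIs (1845 of chow, 1045 of the NASH diet), the correlation of square-root counts was 0.05 between Cps1 and Ass1 in chow and 0.14 in the NASH diet, and -0.04 and -0.01 between Cps1 and Otc. Cps1 and Arg1 had 0.26 and 0.41, Ass1 and Sds 0.29 and 0.62, Ass1 and Arg1 0.40 and 0.53, Sds and Cyp2f2 0.38 and 0.20, and Hal and Cyp2f2 0.59 and 0.60. Cells of 1 library share their source, so these are descriptions.

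Outside hepatocytes the members were low. With each cell thinned to 1000 UMIs, Cps1 was seen in 58.4% of the hepatocyte-like cells on chow and 63.8% of those on the NASH diet, but in 6.11% and 9.40% of the other named cells. Unthinned, those other cells had median depths of 3661.5 and 4294 UMIs, and Cps1 was seen in 19.6% and 24.9% of them. Ass1 was the member seen most in them after thinning, in 13.0% and 18.8%, against 52.7% and 60.0% of hepatocyte-like cells. Free RNA in droplets gives such counts, and its share was not measured here.

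Carriers that feed the cycle differed unevenly between the diets. The counts for this and the lists that follow stand beside 10.4% of all genes higher and 5.23% lower past 1.5-fold. Of 7 tested, 2 passed and both were higher in the NASH diet: Slc25a13, the aspartate carrier that supplies Ass1 (141 to 234 CPM), and Car5a, the mitochondrial carbonic anhydrase that supplies bicarbonate (19.2 to 38 CPM). The ornithine carrier Slc25a15 was at 200 and 180 CPM, and Slc25a12 at 10.7 and 10.1 CPM. The pericentral ammonia genes differed most of all lists, with 4 of 4 past the fold and a median of 1.45: Slc1a2, a glutamate transporter (38.3 to 173 CPM), Glul (297 to 975 CPM), Rhbg, an ammonia channel (4.05 to 10.5 CPM), and Oat (473 to 959 CPM). Rhbg reached 10 CPM only in the NASH diet library. The share of Glul-high cells was also higher there. Within Glul-high cells, which Glul itself defines, Glul differed by 0.19 and Oat by 0.46. Slc1a2 was at 887 CPM in those of chow and 1351 CPM in those of the NASH diet, and Rhbg at 82.6 and 83.8 CPM. The part of the cell share in the differences was not tested.

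Of 9 transaminases tested, 4 were higher and 1 was lower past the fold (10.4% and 5.23% of all genes). Etnppl (19.3 to 61.8 CPM) and Gpt, the alanine transaminase (78.9 to 153 CPM), were the highest, and Tat, the tyrosine transaminase (1023 to 521 CPM), and Agxt (215 to 171 CPM) the lowest. Of 9 aromatic amino acid genes, 4 were higher and none lower, among them Hpd (637 to 1228 CPM), with Kynu (99.8 to 80.7 CPM) and Kmo (176 to 195 CPM) at the other end. Of 10 genes of proline, lysine and branched-chain breakdown, 6 were higher and none lower, with the proline dehydrogenases Prodh (41.4 to 78.8 CPM) and Prodh2 (53.4 to 94.5 CPM) highest and Aass (159 to 222 CPM) and Bckdha (119 to 160 CPM) lowest. After Hal in histidine breakdown, Uroc1 was at 167 and 269 CPM, Ftcd at 139 and 196 CPM and Amdhd1 at 101 and 96.6 CPM, so 1 of 3 passed the fold. Of 10 serine, glycine and threonine genes only Sardh did (234 to 388 CPM), with Dmgdh next (126 to 179 CPM), and Amt (47.0 to 33.6 CPM) and Gldc (108 to 88.0 CPM) lowest.

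Beside the same shares of all genes, of 8 amino acid transporters Slc7a2, an arginine transporter, was higher (147 to 233 CPM), with Slc38a4 next (417 to 546 CPM), and Slc3a1 (62.9 to 17.5 CPM) and Slc38a2 (209 to 96.3 CPM) were lower past the fold. Of 12 regulators known to act on urea cycle genes, 1 was higher and 1 lower past the fold, the latter Cebpb (375 to 210 CPM). Sirt3 was at 49.8 and 74.3 CPM and Hnf4a at 229 and 162 CPM. The periportal landmarks that are not members went both ways, with Hsd17b6 (38.6 to 215 CPM) and Aldh1b1 (32.9 to 71.0 CPM) higher and Ctsc (148 to 58.7 CPM) and Cdh1 (45.4 to 22.4 CPM) lower, 2 of 10 in each direction. Of 8 pericentral landmarks, 2 were higher and none lower, Cyp2a5 (12 to 123 CPM) and Lect2 (68.7 to 112 CPM), while Cyp27a1 (111 to 112 CPM) differed least.

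The genes most like the members were sought over the 10 points given by 5 bins in each of the 2 libraries, among 5833 genes, by Pearson's r of log2 levels. Closest to the mean of the 5 cycle enzymes were Pigr (0.980), Hsd11b1 (0.973), Azgp1 (0.965), Qprt (0.964) and Uroc1 (0.959). Closest to Sds were Mug2 (0.995), Plxna2 (0.993) and Ctnnbip1 (0.992), closest to Hal were Sfxn1 (0.998), Hsd17b13 (0.995) and Serpina12 (0.993), and closest to Gls2 were Mug2 (0.991), Amdhd1 (0.989) and Sfxn1 (0.988). The points share libraries and the axis, so these values rank genes and test nothing.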

How the data were processed

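In the deposited matrices each value is a raw UMI count, which the authors had not normalized. Cell Ranger is given as 3.1.0 in the submitters' processing notes, with Seurat and build mm10, and as 3.0.2 per the file headers. The value columns left unmatched to a sample numbered 0. A merged matrix, with 86.4% of the chow UMIs, was used only as an alternative.

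Barcodes needed at least 200 genes, 500 UMIs and at most 30% mitochondrial UMIs. Scrublet called 0 doublets and was judged not to have worked, so the 433 chow and 277 NASH diet barcodes with the highest scores were removed. Cells were clustered with Scanpy 1.11.5 (2000 variable genes, 30 components, 15 neighbours, Leiden resolution 1). Hepatocyte-like clusters were named from 10 markers at a mean log2 fold of 0.5, a threshold lowered after the clusters had been seen. Levels are CPM summed over cells, compared with a pseudocount of 1 CPM among genes with at least 10 CPM in 1 library. The steps were tested on simulated data.

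The members and gene lists were chosen with earlier results of these data known. Named genes are all members, the 2 highest and 2 lowest of each list, and the 5 or 3 most alike; a few named by this rule are not reported here. Of 31053 gene IDs, 31011 were found in GENCODE M21. The promoter patterns were chosen during the work, and one C/EBP pattern was replaced after its first run.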

Additional observations from a re-analysis of the deposited data

How the results depend on the processing

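No paired analysis was possible because each diet had 1 library. The median difference between diets was 0.0947 with a mitochondrial limit of 20%, 0.27 with the merged matrix, 0.47 without mitochondrial UMIs, 0.48 with cells thinned to 5000 UMIs and 0.25 with the median of all genes subtracted; in alternatives chosen after seeing the data it was 0.34 in cells on the axis and 0.275 with hepatocytes named at a log2 fold of 1. Members past the fold numbered 5 and 3 with limits of 20% and 50%, 2 with thinning and 2 with a mean over cells, 0 at a fold of 2, 0 on the axis and 0 with the stricter naming. The median slope in chow was 0.99 at the 20% limit, 1.09 with 10 bins and 0.70 without Glul-high cells. In the NASH diet it was 2.46 at the 20% limit, 1.44 with 3 bins, 2.39 on an axis of other landmarks and 1.04 without Glul-high cells. At the 20% limit Cps1 (-0.58), Hal (-0.25) and Cyp2f2 (-0.78) reversed between diets; hepatocyte-like barcodes then numbered 3146 for chow (median 983.5 UMIs) and 762 for the NASH diet (median 2869), so unlike cells were compared. At the 50% limit they numbered 2305 for chow (median 22120 UMIs) and 3866 for the NASH diet (median 1493), again unlike cells. With the stricter naming they numbered 2069 and 994, so barcodes were taken out almost only from the NASH diet. The causes of the moves were not tested. With no replicates, depth sets only the counting error.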
